A study of Mus musculus with 15 samples.

Results

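The genes described here are 9 components of the complement system that cells outside the liver can make: C3, C4b, C2, C1s1, C1ra, Cfb, Cfd, Serping1 and Masp1. They were taken by symbol from a table of 53465 genes, and each symbol matched 1 gene. Their RNA was followed in 15 RNA sequencing libraries, 5 from each of 3 cell populations called endovascular progenitors (EVP), transit amplifying (TA) and definitive differentiated (D) cells. All 3 populations were sorted from tumors on day 15 after injection of B16-F0, a melanoma cell line of the mouse. The hosts were CAG-GFP mice aged 8 to 14 weeks, in which a promoter active in most cell types drives the green fluorescent protein, so GFP marks host cells of any type and not an endothelial lineage. Every sorted cell was GFP+, lineage negative (Lin-, without surface markers of blood cells) and CD34+. The populations differed by 2 proteins of the endothelial surface: EVP cells were CD31lo VEGFR2lo, TA cells CD31int VEGFR2lo and D cells CD31hi VEGFR2hi. No source used here says how many animals stand behind a library, so p-values below measure the spread between these libraries, which may be partly technical.

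Complement is a cascade of blood and tissue proteins that tags surfaces for removal. In the classical pathway, C1q binds a surface and activates the proteases C1r and C1s, which cut C4 and C2, and the pieces of C4 and C2 then form the enzyme that cuts C3. In the lectin pathway, proteases named MASP start the same steps, and in the alternative pathway factor D cuts factor B on bound C3. The C1 inhibitor, encoded by Serping1, inactivates C1r, C1s and the MASPs. Hepatocytes make most of the plasma protein, and fibroblasts, macrophages, endothelial cells and adipocytes make some components in tissues. RNA alone was measured here, not the secreted protein.

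RNA of 7 of the 9 components was far more abundant in EVP than in D and lay in between in TA. The 7 were C3, C4b, C2, C1s1, C1ra, Cfb and Serping1, with means 13.8-fold (C2) to 633.8-fold (C3) higher in EVP than in D. Masp1 did not pass the threshold in any comparison, and Cfd was close to the limit of detection. Together the 9 components took 0.712% ± 0.274 (SD, n = 5) of the reads counted on genes in EVP, 0.225% ± 0.0894 in TA and 0.00517% ± 0.00202 in D. Serping1 alone took 0.297% ± 0.0989 in EVP, and C3 took 0.217% ± 0.101.

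Between 5394356 and 26513073 reads were counted on genes per library, with a median of 19049194, and the detection limit of 3 reads corresponded to 1.81 to 10.5 normalized counts. A normalized count is the number of reads on a gene divided by a size factor of the library. Replicate 1 of each population had the fewest reads of its population and reads on 81.6% to 98.3% of olfactory receptor genes, which belong to sensory neurons of the nose. That share was 57.8% to 71.0% in EVP replicate 2 and TA replicates 2 and 3, 14.5% to 24.1% in EVP replicate 3 and D replicates 2 and 3, and 2.89% to 5.06% in replicates 4 and 5. The endothelial label was checked with 8 endothelial genes: Pecam1, which encodes CD31, Kdr, which encodes VEGFR2, Cdh5, Tie1, Tek, Cldn5, Esam and Emcn. Their summed normalized counts were 2216 to 4090 in EVP, 5562 to 62394 in TA and 87260 to 142473 in D. The summed level of 7 fibroblast genes went the other way, with 541037 to 847591 in EVP, 121980 to 371667 in TA and 693 to 2820 in D. None of these 15 genes was at 0 in every library of a population. Tek departed from the other endothelial genes and had the highest mean of the 8 in EVP. It had 1578 ± 747 normalized counts (SD, n = 5) in EVP, 583 ± 325 in TA and 2379 ± 681 in D. By its RNA, EVP was thus low in endothelial markers other than Tek and high in fibroblast markers. The name EVP is used below for the sort gate. In bulk RNA, fewer cells of a type and less RNA per cell cannot be told apart.

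The genes lie in 2 clusters and at 4 single places of the mouse genome (build GRCm38). C1ra (ENSMUSG00000055172, chr6:124512405-124523443, + strand) and C1s1 (ENSMUSG00000038521, chr6:124530345-124542359, - strand) are neighbors on chromosome 6. C4b (ENSMUSG00000073418, chr17:34728380-34743882), Cfb (ENSMUSG00000090231, chr17:34856374-34862518) and C2 (ENSMUSG00000024371, chr17:34862604-34898265) share the class III region of the major histocompatibility complex on chromosome 17, all on the - strand. C3 (ENSMUSG00000024164, chr17:57203970-57228136, - strand) is farther along the same chromosome. Serping1 (ENSMUSG00000023224, chr2:84765387-84775444, - strand), Cfd (ENSMUSG00000061780, chr10:79890853-79892655, + strand) and Masp1 (ENSMUSG00000022887, chr16:23451785-23520590, - strand) stand alone.

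The RefSeq promoter table (GRCm38.p6) held 4 of the 9 genes, C3, C1s1, C1ra and Cfd. It held 2 starts for C1s1, and positions for that gene refer to the start of the window shown. Bases before the transcription start of C3 and C1s1 are shown because both genes were higher in EVP and TA than in D and their windows hold a match to TTGCNNAA, a form of the C/EBP motif. C/EBP factors are known to drive acute phase genes such as C3. Each sequence is the 250 bases that end just before the start, on the gene's own strand, with the match in capitals. The windows lie at chr17:57228137-57228386 (- strand) for C3 and at chr6:124542360-124542609 (- strand) for C1s1.
C3: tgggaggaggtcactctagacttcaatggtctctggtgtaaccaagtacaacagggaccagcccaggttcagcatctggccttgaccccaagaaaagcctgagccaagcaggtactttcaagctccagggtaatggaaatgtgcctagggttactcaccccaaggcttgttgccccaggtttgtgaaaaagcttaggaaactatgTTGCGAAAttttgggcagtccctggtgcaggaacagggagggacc
C1s1: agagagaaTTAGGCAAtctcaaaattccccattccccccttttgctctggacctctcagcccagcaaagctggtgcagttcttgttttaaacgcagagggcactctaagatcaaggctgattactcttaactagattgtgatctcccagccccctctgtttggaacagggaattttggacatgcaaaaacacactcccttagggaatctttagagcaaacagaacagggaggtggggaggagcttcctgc
In C3 the match is TTGCGAAA, at -45 to -38 from the start, and in C1s1 it is TTAGGCAA, the motif on the other strand, at -242 to -235. The motif was searched on both strands, as was TTCNNNGAA, a form of the STAT motif. TTCNNNGAA was not found in these 4 windows, and the windows of C1ra and Cfd held neither motif. The RefSeq start of C1ra lies inside the gene as given above, so most of its window is not upstream of that gene model. Among 32851 mouse promoter windows of the same length, 9.56% held TTGCNNAA and 7.02% held TTCNNNGAA. A match is a run of letters and not a measured binding site.

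The first question was how EVP, named as the start of the hierarchy, differed from D, named as its end. C1s1 and C1ra encode the proteases C1s and C1r of the first complex of the classical pathway. EVP replicates 1 to 5 had 7566, 17553, 8858, 17940 and 6501 normalized counts of C1s1. TA replicates 1 to 5 had 1522, 5862, 2416, 3438 and 4357, and D replicates 1 to 5 had 55, 60, 46, 53 and 65. Every EVP library was above every TA library, and every TA library above every D library. The mean of C1s1 was 208.6-fold higher in EVP than in D, a log2 fold change of 7.56 ± 0.34 (SE, n = 5) on the scale of log2(normalized count + 1), with an adjusted p of 1.39e-10 (limma). Here and below, the threshold was an adjusted p under 0.05, folds are ratios of mean normalized counts, and fold changes on the log2 scale come from limma. For C1ra, the EVP libraries had 4838, 10311, 4728, 9980 and 3742 normalized counts. The TA libraries had 1525, 3850, 1200, 1699 and 1887, and the D libraries 15, 47, 20, 53 and 59. C1ra in TA replicate 2 was just above EVP replicate 5, so these populations overlapped, whereas D stood apart. Its mean was 174.7-fold higher in EVP than in D (log2 fold change 7.47 ± 0.41, adjusted p = 1.08e-09, limma).

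C4b and C2 encode the substrates that C1s cuts. In EVP replicates 1 to 5, C4b had 12117, 21021, 11244, 24581 and 5652 normalized counts. In TA it had 1843, 5698, 2786, 3840 and 2517, and in D it had 65, 0, 5, 112 and 47. The D libraries were the most uneven of the 3 populations, and the 0 of D replicate 2 allows up to 2.45 normalized counts. Its mean was 325.7-fold higher in EVP than in D (log2 fold change 9.46 ± 0.94, adjusted p = 8.71e-07, limma). C2 was the least changed of the 7. Its 5 EVP libraries had 695, 980, 540, 866 and 405 normalized counts. Its TA libraries had 155, 387, 391, 310 and 321, and its D libraries 36, 56, 72, 42 and 47. The 3 populations did not overlap, and C2 was 13.8-fold higher in EVP than in D (log2 fold change 3.73 ± 0.32, adjusted p = 1.71e-07, limma).

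C3, on which all pathways converge, had the highest ratio of means between EVP and D. EVP replicates 1 to 5 had 42333, 41837, 24996, 66568 and 16759 normalized counts of C3. The TA libraries had 7584, 13333, 6017, 10071 and 6780, and the D libraries 157, 10, 64, 47 and 26. No population overlapped another. On the log2 scale EVP was 9.66 ± 0.53 above D (adjusted p = 1.08e-09, limma), which is not separable from the 9.46 ± 0.94 of C4b: without D replicate 4, C4b was at 10.11 and C3 at 9.70. Cfb encodes factor B, which takes the place of C2 in the alternative pathway. Cfb had 407, 1265, 578, 653 and 512 normalized counts in the EVP libraries. It had 112, 395, 271, 167 and 275 in TA and 5, 20, 15, 21 and 22 in D. The lowest EVP library, replicate 1, lay just above the highest TA library, replicate 2. Its mean was 41.3-fold higher in EVP than in D (log2 fold change 5.30 ± 0.43, adjusted p = 1.00e-07, limma).

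Serping1, the inhibitor of C1r and C1s, was the most abundant component in every population. The EVP libraries had 37007, 69502, 46422, 73945 and 33478 normalized counts of Serping1. The TA libraries had 7749, 24566, 10667, 17131 and 20572, and the D libraries 387, 536, 162, 1046 and 447. Populations did not overlap, and D cells kept 162 normalized counts or more of this inhibitor. Serping1 was 101.0-fold higher in EVP than in D (log2 fold change 6.82 ± 0.41, adjusted p = 2.58e-09, limma).

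**Figure D1:**
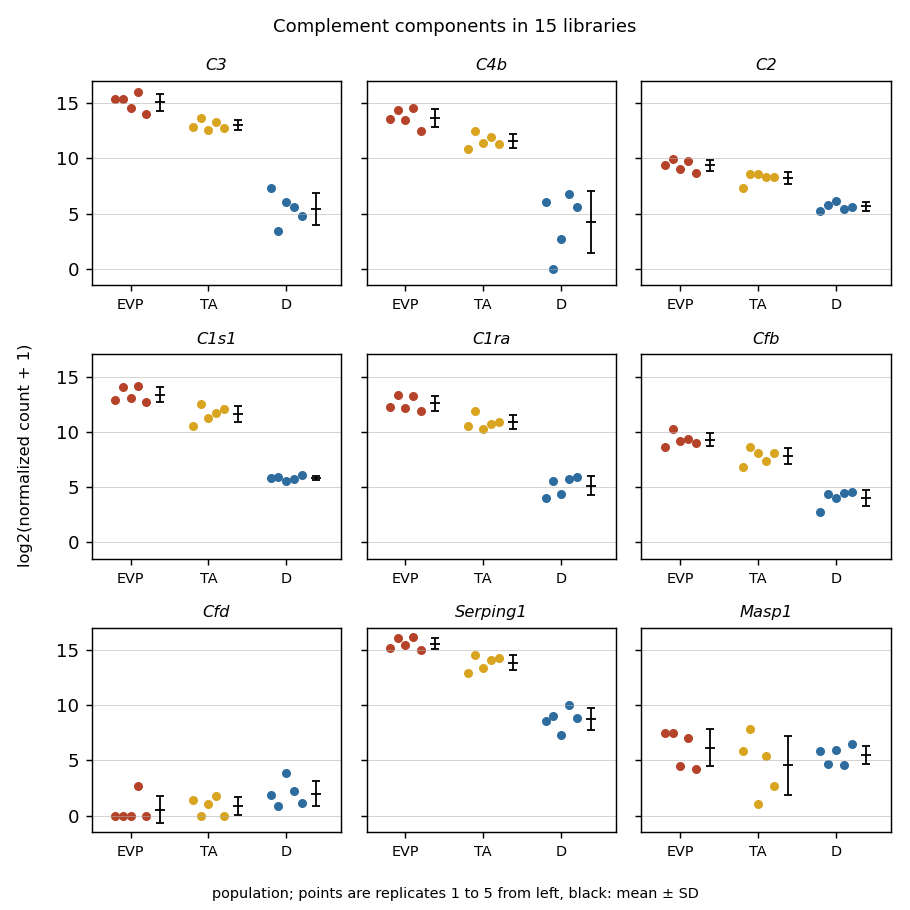
Level of each of the 9 complement components in every library, as log2(normalized count + 1) on the vertical axis, by population. Points are replicates 1 to 5 from left to right and black bars are the mean ± SD. For 7 components the D libraries lie below all others, while Cfd and Masp1 show no such step.

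Masp1 and Cfd did not follow the other components. Masp1 encodes the lectin pathway proteases MASP-1 and MASP-3 and the inhibitor MAp44, which gene counts cannot separate. Its EVP libraries had 183, 178, 21, 132 and 17 normalized counts. The TA libraries had 57, 225, 1, 42 and 6, and the D libraries 56, 24, 61, 23 and 88. The 3 populations overlapped, and the spread within EVP and TA was wider than any difference between means. Masp1 gave log2 fold changes of 0.65 ± 1.05 for EVP against D (adjusted p = 0.774), 1.57 ± 1.05 for EVP against TA (adjusted p = 0.561) and -0.92 ± 1.05 for TA against D (adjusted p = 0.699), all by limma. With these standard errors, differences of severalfold in Masp1 could not have been detected. The sign of Masp1 between EVP and D turned under quantile normalization, and between TA and D under edgeR and DESeq2.

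Cfd encodes factor D, also called adipsin, which adipocytes make in large amounts. Reads on Cfd were 0, 0, 0, 7 and 0 in EVP replicates 1 to 5. They were 1, 0, 1, 3 and 0 in TA and 2, 1, 17, 5 and 2 in D. D replicate 3 held more of them than any other library, and Cfd was left out of the test because its mean over all libraries was under 5 normalized counts. Of 5 adipocyte markers (Adipoq, Plin1, Cidec, Lep and Retn), the summed normalized counts were 4.84 to 73.7 in EVP, 3.52 to 290.7 in TA and 0 to 28.8 in D. None of the 5 was at 0 in every library of a population, and 0 of the 2 tested passed the threshold. Most of these values are at or under the limit of 3 reads, and no difference in Cfd between populations was tested.

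Between EVP and D, 7 of the 8 components tested were higher in EVP and 0 were lower. Of all 25549 genes tested, 11.6% were higher in EVP and 7.46% in D. The median log2 fold change was 7.15 over the 8 components and 0.46 over all genes tested. All 8 had a mean above 5 normalized counts in each population on its own, so none entered the test through 1 population alone. In the same 7 components every EVP library was above every D library, which held for 10.2% of all genes. The 7 fibroblast genes (Pdgfra, Col1a1, Col1a2, Dcn, Lum, Dpt and Pi16) were all higher in EVP than in D, and 7 of the 8 endothelial genes were higher in D. How much of the difference in complement RNA goes with the fibroblast markers was not tested. The 4 hepatocyte markers (Alb, Ttr, Apoa1 and Serpina1a) summed to 0 to 186.1 normalized counts in EVP, 1.87 to 93.1 in TA and 0 to 16.5 in D, with none at 0 in every library of a population. The 1 hepatocyte marker tested did not pass the threshold.

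The second question was where TA, the middle of the named hierarchy, stood. Against D, the same 7 of 8 tested components were higher in TA and 0 were lower, where 8.21% of all genes were higher in TA. Means in TA were 144.2-fold (C3), 72.8-fold (C4b), 62.8-fold (C1s1), 52.8-fold (C1ra), 31.3-fold (Serping1), 14.7-fold (Cfb) and 6.20-fold (C2) above those in D. The adjusted p (limma) of these 7 ran from 1.10e-08 for C1s1 to 3.99e-05 for C4b. The median log2 fold change for TA against D was 5.42 over the 8 components and 0.24 over all genes. All TA libraries were above all D libraries in these 7, as in 5.56% of all genes. The comparisons of EVP with D and of TA with D share the 5 D libraries, so they are not independent of each other. All 7 fibroblast genes were also higher in TA than in D, and 6 of the 8 endothelial genes were higher in D.

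EVP and TA differed less, and the calls depended on single libraries. C3, C1s1, C1ra and Serping1 were higher in EVP, 4 of the 8 tested, and 0 were lower, where 1.56% of all genes were higher in EVP. C1s1 had the lowest adjusted p of the 4, with a mean 3.32-fold higher in EVP (log2 fold change 1.75 ± 0.34, adjusted p = 0.00901, limma). Serping1 was 3.23-fold higher (log2 fold change 1.74 ± 0.41, adjusted p = 0.0243). C1ra was 3.31-fold higher (1.72 ± 0.41 on the log2 scale, adjusted p = 0.0264). C3 was 4.40-fold higher (2.04 ± 0.53 on the log2 scale, adjusted p = 0.0423).

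The other three of the 7 did not pass the threshold between EVP and TA. C2 had an adjusted p of 0.0562 at a log2 fold change of 1.15 ± 0.32 (limma), and Cfb had 0.0684 at 1.5 ± 0.43. For C4b the log2 fold change was 2.09 ± 0.94 with an adjusted p of 0.286, and EVP replicate 5 lay just below TA replicate 2. All EVP libraries were above all TA libraries in 5 components (C3, C2, C1s1, Cfb and Serping1), as in 2.7% of all genes. The median log2 fold change was 1.73 over the 8 components and 0.085 over all genes. Of the fibroblast genes 4 of 7 were higher in EVP than in TA, and 7 of 8 endothelial genes were higher in TA.

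Leaving out 1 library at a time, C1s1 passed the threshold between EVP and TA in 15 of 15 fits, C1ra and Serping1 in 10 each and C3 in 5. The number of components called was 1 without EVP replicate 2, EVP replicate 4, TA replicate 1 or TA replicate 3, and 2 without EVP replicate 3 or TA replicate 4. Without replicate 1 of every population, limma called 0 components, although 6 of the 8 had an unadjusted p under 0.05 (15.4% of all genes) and all 8 a positive log2 fold change, for example 1.93 for C3 and 1.60 for C1s1. In that fit 104 genes were called in all, and no other tool was run on these 12 libraries. Against D, the 7 components were called in all of these fits.

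**Figure D2:**
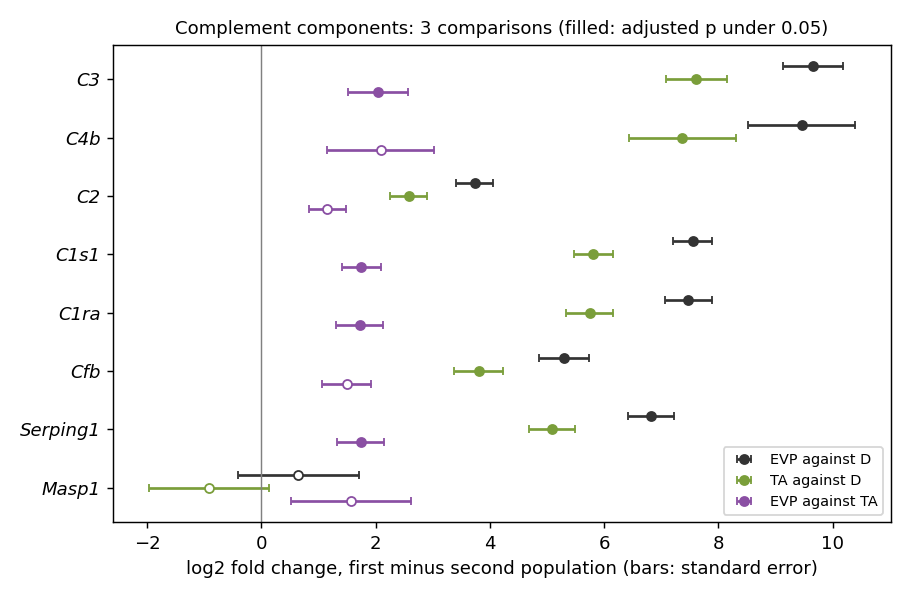
Log2 fold change (horizontal axis, on the scale of log2(normalized count + 1)) of the 8 tested components in the 3 comparisons, with bars of 1 standard error. Filled points passed an adjusted p under 0.05. C3 and C4b lie farthest to the right against D, at 9.66 and 9.46 between EVP and D. Masp1, between -0.92 and 1.57, has standard errors of 1.05 and no filled point.

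On a line from the EVP mean (0) to the D mean (1) on the log2 scale, TA stood at 0.212 for C3, 0.221 for C4b, 0.230 for C1ra, 0.231 for C1s1, 0.255 for Serping1, 0.282 for Cfb and 0.309 for C2. The median over all 2952 genes higher in EVP than in D was 0.311. C2 stood almost at that median, and for the other components TA was nearer to EVP than the median. Whether the components differ from those genes was not tested.

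Within EVP and TA, the components tended to be high or low in the same libraries. EVP replicate 4 was the highest EVP library for 4 of the 7 components (C3, C4b, C1s1 and Serping1), and replicate 2 for the other three. EVP replicate 5 was the lowest for 6 of the 7, and Cfb was lowest in replicate 1. In TA, replicate 2 was the highest for 6 of the 7 and replicate 1 the lowest for 5. In D no library was highest for more than 3. The fibroblast markers had a partly similar order. Replicate 5 was the lowest EVP library for 5 of 7 and replicate 1 the lowest TA library for 5 of 7. In EVP each marker was highest in replicate 2 or 4, but Col1a1 and Col1a2 were lowest in replicate 1. In TA, replicate 2 was the highest for only 3 of 7 markers. Pdgfra and Pi16 were highest in TA replicate 4, and Col1a1 and Col1a2 in TA replicate 5. Whether the order of the components follows that of the markers was not tested. Over all 15 libraries, the 21 pairs among the 7 components had Pearson correlations of 0.891 to 0.990 on the log2 scale, with a median of 0.962. These correlations carry the difference between populations, and the libraries share their size factors.

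The genes most like each component over the 15 libraries were listed by the same correlation. For C3 they were Sod3, Srpx and Vcan (0.991, 0.990 and 0.990). For C4b they were Fxyd1, Gpm6b and Prrx1 (0.988, 0.985 and 0.983). C2 was most like Nov, Mgst1 and C1s1 (0.981, 0.978 and 0.977), and C1s1 most like Emilin2, Ctsh and Prelp (0.996, 0.993 and 0.992). C1ra had C1s1, Ctsh and Ccl11 (0.990, 0.989 and 0.989), and Cfb had Nov, C1ra and Ctsh (0.988, 0.983 and 0.982). Serping1 had Lrrn4cl, Ctsh and Mfap2 (0.992, 0.992 and 0.991). Ctsh was thus among the 3 most alike for 4 of the 7 components. Masp1 had no close match, with Ankrd13c, C130089K02Rik and Gm45501 at 0.826, 0.822 and 0.822.

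Levels of different genes were compared per kilobase (kb) of exon. In EVP, Serping1 had 22396 ± 8009 (SD, n = 5) normalized counts per kb, C3 had 7486 ± 3726, C1s1 had 3734 ± 1789 and C4b had 2620 ± 1354. Then came C1ra with 2254 ± 1059, Cfb with 242 ± 119, C2 with 180.0 ± 60.4, Masp1 with 10.8 ± 8.31 and Cfd with 1.21 ± 2.71 normalized counts per kb. The ranges of neighbors in this order were apart for Serping1 and C3, for C1ra and Cfb, and for C2 and Masp1, and overlapped for all other neighbors. TA had the same order except that C1ra (682 ± 351) stood above C4b (586 ± 264), with overlapping ranges. In D the order was different below Serping1, which had 222 ± 141 normalized counts per kb. There C1s1 had 17.9 ± 2.32, C2 13.0 ± 3.62, C1ra 12.9 ± 6.66, C3 11.8 ± 11.2 and C4b 8.04 ± 8.07 per kb. Serping1 and C1s1 were the only neighbors in D whose ranges were apart.

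Counting touches the level of some of these genes. The gene model Gm20547, which reads through from C2 to Cfb on the same strand, covers 42.8% of the exon bases of C2 and 79.5% of those of Cfb, and it had 0 reads in every library. Gm16567, on the opposite strand, covers 18.4% of the exon bases of C1s1 and was also at 0 in every library. Reads on bases shared by 2 genes are therefore not seen under Gm20547, and whether they were dropped or given to C2 and Cfb is not given in the sources used here. Per kb of bases that belong to 1 gene only, Cfb would have 1180 ± 583 normalized counts in EVP and C2 339 ± 114, which are upper limits if shared reads were counted. In D, Cfb would have 28.6 ± 11.6 on that measure, against 5.86 ± 2.39 per kb of all its exon bases. C2 would have 24.6 ± 6.82 in D and C1s1 21.9 ± 2.85, also upper limits. Cfb would then stand next below Serping1 in D, so the D order given above depends on how shared reads were counted.

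Near copies are a second limit. Of the 76-base windows of the longest transcript, 76 being the read length, 42.1% of those of C1ra are also in C1rb or Gm18840, 23.2% of those of C4b in C4a and 14.4% of those of C1s1 in C1s2. These copies were low, with 7.67 ± 4.68 normalized counts of C1rb, 12.4 ± 4.78 of C4a and 61.4 ± 50.5 of C1s2 in EVP. How reads that match both copies were treated could change the level of C1ra, C4b and C1s1. C3, Serping1, Masp1 and Cfd share no such window with another gene.

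**Figure D3:**
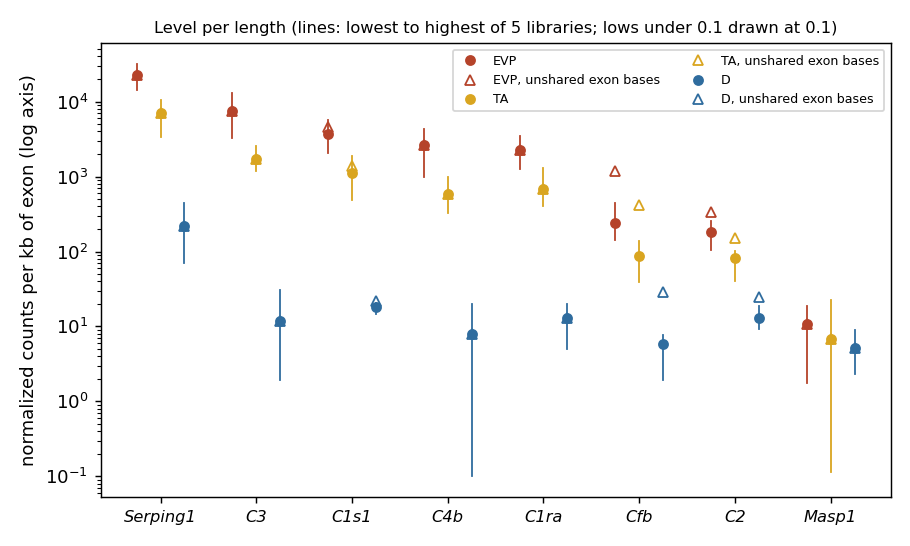
Normalized counts per kb of exon (vertical log axis) for 8 components, ordered by their level in EVP. Points are means of 5 libraries, lines run from the lowest to the highest library, and triangles use only exon bases that belong to 1 gene. Serping1 is at the top in all 3 populations, and the triangles depart from the points for Cfb, C2 and C1s1.

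Ratios within a library depend on its size factor only through the 1 added to each normalized count, which matters for low values. A set of 3 ratios was compared between EVP and D with an exact two-sided permutation test. C1s1 over C1ra, the proteases of one complex, had a log2 ratio of 0.79 ± 0.10 (SD, n = 5) in EVP, 0.77 ± 0.48 in TA and 0.71 ± 0.76 in D. The difference between EVP and D was 0.085 (exact p = 0.817, adjusted over the 3 ratios 0.817). C3 over C4b, a pair of related thioester proteins, had 1.39 ± 0.32 in EVP, 1.44 ± 0.36 in TA and 1.19 ± 2.21 in D. EVP and D thus differed by 0.20 (exact p = 0.746, adjusted 0.817), a value set in part by the 0 of C4b in D replicate 2, since it was -0.00713 with a pseudocount of 0.5 and 0.80 with 8. The inhibitor over its target, Serping1 over C1s1, had 2.21 ± 0.19 in EVP, 2.22 ± 0.12 in TA and 2.95 ± 0.89 in D. That difference was -0.73 (exact p = 0.0952, adjusted 0.286) and did not pass the threshold. Without D replicate 3 it was -1.02 (exact p = 0.00794, not adjusted). With any other single EVP or D library left out, the unadjusted exact p was 0.119 to 0.190. The ratios spread far more in D, where few reads stand behind them, than in EVP, so a difference of severalfold in C3 over C4b would not have been detectable.

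**Figure D4:**
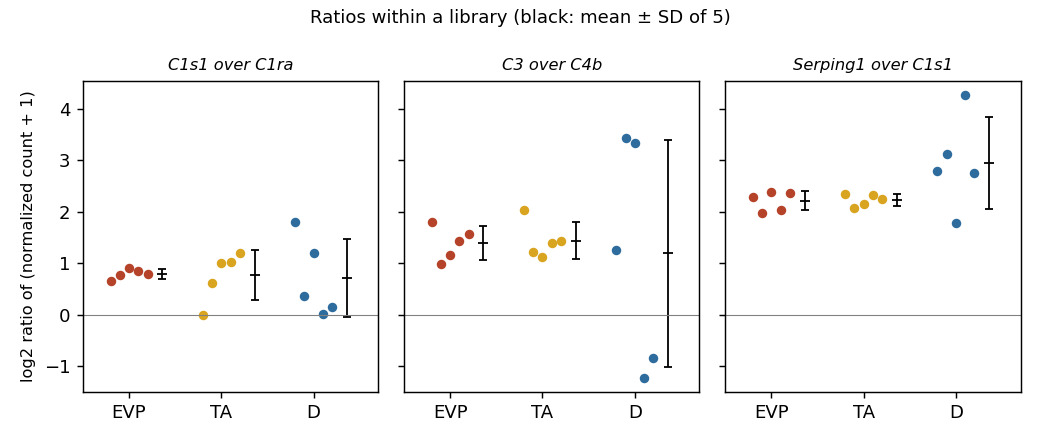
Log2 ratios of 3 pairs of components within each library (vertical axis, with 1 added to each normalized count), by population. Points are replicates 1 to 5 from left to right and black bars are the mean ± SD of 5 libraries. EVP and TA lie close together in each panel, and D is widely spread.

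Other genes of the complement system did not move as one group. Of 42 listed, Itgam was left out because 2 genes carry its symbol, and 36 of the remaining 41 were tested. Between EVP and D, 6 of the 36 were higher in EVP (11.6% of all genes were) and 3 were higher in D (7.46% of all genes). Of these 6, Hc, C7, Cfi and C1s2 had means under 5 normalized counts in D, a limit taken up below. The median log2 fold change of the 36 was 0.52, against 7.15 for the 8 components. Among them Cd55, which breaks up the enzymes that cut C3, had 4639 ± 2354 normalized counts in EVP against 151 ± 36.5 in D, 30.7-fold more in EVP (adjusted p = 4.67e-08, limma). Colec12, a collectin of the cell membrane, had 4068 ± 827 in EVP and 58.3 ± 48.3 in D, 69.8-fold more (adjusted p = 1.94e-06, limma).

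The others higher in EVP (Hc, C7, Cfi and C1s2) had low levels. Their means in D were under 5 normalized counts, so they passed the filter only through EVP and TA. The filter thus favored their calls against D, from EVP or from TA, and their p-values against D are given as description only. Hc, which encodes C5, had 85.0 ± 62.0 normalized counts in EVP against 3.29 ± 7.37 in D (adjusted p = 0.000585, limma). C7, of the membrane attack complex, had 92.5 ± 65.3 and 2.57 ± 3.54 (adjusted p = 0.00419), and Cfi, the protease factor I, had 54.7 ± 40.3 and 3.25 ± 4.57 (adjusted p = 0.0134). C1s2, the near copy of C1s1, was at or under 3 reads in every D library, so that EVP was at least 23.7-fold higher than D taken at the mean limit of 3 reads per library. The same bound for TA was 14.2-fold but 4.15-fold without TA replicate 3, and TA replicates 1 and 2 were themselves at or under 3 reads. Against D, TA was higher in Colec12, Hc, C1s2 and Cd55, 4 of 36 (8.21% of all genes), and lower in Cd93 and Clu, 2 of 36 (4.31% of all genes). With 1 library left out, the call between TA and D was lost in 9 of 15 fits for C1s2, 8 for Cd93 and 6 for Clu, and in none for Colec12, Hc and Cd55.

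The 3 genes that were lower in EVP than in D were Clu, Cd59a and Cd93. Clu (clusterin, a soluble regulator of the membrane attack complex) had 882 ± 410 normalized counts in EVP against 2841 ± 1006 in D (adjusted p = 0.0170, limma). Cd59a, which blocks the membrane attack complex on a cell's own surface, had 77.0 ± 24.3 in EVP, 302 ± 158 in TA and 396 ± 87.8 in D (adjusted p between EVP and D = 5.92e-05, limma). Cd93, an endothelial surface protein once described as a C1q receptor, had 223 ± 170 in EVP, 5766 ± 5633 in TA and 20709 ± 3952 in D, 92.7-fold more in D than in EVP (adjusted p = 3.76e-06, limma).

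The subunits of C1q, which hold C1r and C1s, did not follow these proteases. C1qa had 190 ± 163 normalized counts in EVP, 708 ± 477 in TA and 348 ± 167 in D, C1qb had 618 ± 569, 2287 ± 1324 and 1039 ± 454, and C1qc had 371 ± 322, 1827 ± 1169 and 717 ± 382. All 3 were higher in TA than in EVP (adjusted p = 0.0459 for C1qa, 0.0301 for C1qb and 0.0147 for C1qc, limma), as were C3ar1, C5ar1, Cd59a and Cd93, 7 of 36, where 1.94% of all genes were. Cd55 alone of the 36 was higher in EVP than in TA. With 1 library left out, these calls were lost in 13 of 15 fits for C1qa, 5 each for C1qb and C5ar1, 2 for C3ar1 and none for C1qc, Cd59a and Cd93. Macrophages are a known source of C1q, and 7 macrophage genes summed to 2168 to 10297 normalized counts in EVP, 7691 to 39012 in TA and 3979 to 10203 in D. Of these 7, 3 were higher in TA than in EVP and none was at 0 in every library of a population. The part of macrophage RNA in the C1q values was not tested.

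**Figure D5:**
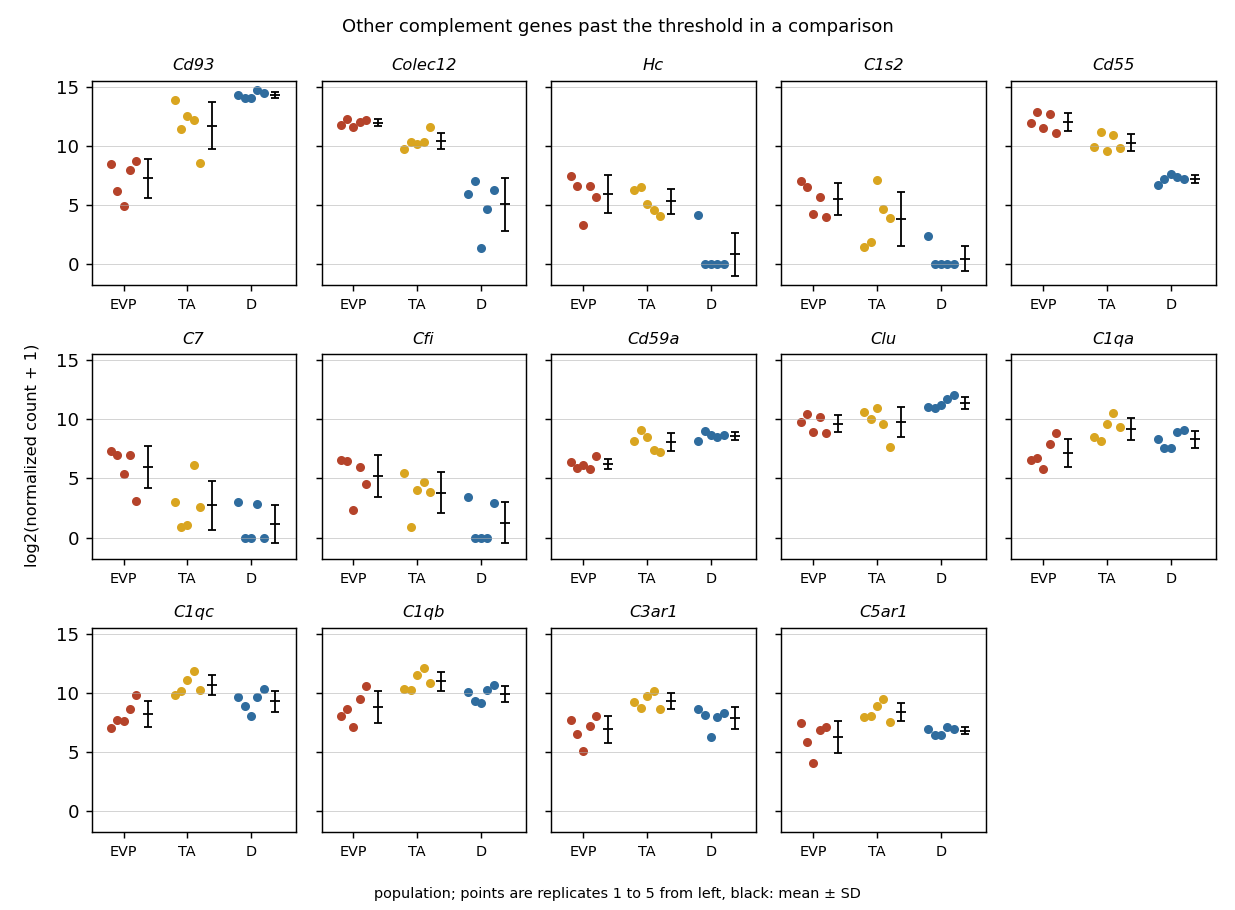
Level of the 14 other complement genes that passed the threshold in a comparison, as log2(normalized count + 1) on the vertical axis, by population. Points are replicates 1 to 5 from left to right and black bars are the mean ± SD. Cd55 and Colec12 are lowest in D, Cd93 is highest in D, and C1qa, C1qb and C1qc have their highest mean in TA.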

How the data were processed

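Libraries were made by the authors with a modified Smart-Seq2 protocol, aligned with STAR 2.5.3a to GRCm38 and counted per gene of Ensembl release 91 with HTSeq-count 0.6.1, and counts were normalized with DESeq2 1.10.1. What the authors deposited is a signal: the reads on a gene over the size factor of its library. In every library 100% of values were whole multiples of the smallest (tolerance 0.01), so whole reads were recovered. Tables of the authors' own comparisons (fold changes and p-values) were not used.

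Log2(normalized count + 1) of 25549 genes, those averaging 5 or more normalized counts, was fitted with limma 3.58.1 in R 4.3.3 (1 coefficient per population, all 15 libraries, trend, two-sided, Benjamini-Hochberg over all genes tested). EdgeR 4.0.16 and DESeq2 1.42.0 on the recovered whole reads were alternatives, as were other pseudocounts, filters, scalings, weights, a replicate block and leaving out each library. The methods were tested on simulated data. Exon lengths and overlaps came from an annotation of GRCm38 that matched 99.6% of gene IDs. Its coordinates were those of the deposited table for 8 of the 9 components, not for Masp1.

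The components, gene lists and tests were chosen with earlier results of these data known. Named genes are the 9 components, every other listed complement gene past the threshold in a comparison (with values for up to 12), and the 3 genes most correlated with each component. Marker lists covered endothelial, fibroblast, mural, macrophage, lymphocyte, melanoma, keratinocyte, adipocyte, hepatocyte and mast cell genes. 1 gene of the complement list is not reported here. The limit of 3 reads covers counting error only.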

Additional observations from a re-analysis of the deposited data

Results flagged for a closer look

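The values of 23 complement genes were looked at in each population, 69 groups of 5 libraries, on the scale of log2(normalized count + 1). A highest or lowest library was marked where its gap to its neighbor exceeded 0.71 of the group's range on that scale (Dixon's limit). The values below are normalized counts, on which the gaps take other shares of the range. In 4 groups a library stood apart in this way, and chance alone would mark about 1 in 20 groups. C2 in TA replicate 1 was the lowest, with 155.1 normalized counts against 310.3 in the next library. Cfb in D replicate 1 was the lowest, with 5.49 normalized counts against 14.9. Hc in D replicate 1 was the highest, with 16.5 normalized counts, while the other four D libraries were at 0. C3ar1 in D replicate 3 was the lowest, with 75.0 normalized counts against 248.7. Of the 4 values, 3 come from a replicate 1 (1 from TA and 2 from D), the replicates with the fewest reads in their population.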

How the results depend on the processing

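Between EVP and D and between TA and D, 7 components were called in every alternative run, with 1 library left out, and without replicate 1 of every population, a setting added after seeing the data. Between EVP and TA the count was 4, ran from 1 to 6 with 1 library left out, from 3 to 6 in the other settings planned, and was 0 without replicate 1 of every population. The replicate number as a block gave 6 components and 1262 genes in all, against 893 without it. The numbers were not taken to pair the libraries, since no label says what they mark and not every pair passed 0.1: the deviations of same-numbered libraries correlated at -0.136 to 0.689, over 0.1 in 11 of 15 pairs, and in 10 of 15 the best match was the own number.

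The ratio of C1s1 over C1ra between EVP and D (log2 difference 0.085) turned to -0.0868 without D replicate 4 and -0.0537 without D replicate 5. That of C3 over C4b turned to -0.00713 with a pseudocount of 0.5, to -0.407 without D replicate 4 and to -0.31 without D replicate 5. That of Serping1 over C1s1 was -1.02 without D replicate 3, with an unadjusted exact permutation p of 0.00794. With any other single EVP or D library left out, that p was 0.119 to 0.190. Leave-one-out ranges for the 3 ratios were -0.0868 to 0.357, -0.407 to 0.757 and -1.02 to -0.403. Masp1 turned to -0.064 between EVP and D under quantile normalization and to 0.34 (edgeR) and 0.39 (DESeq2) between TA and D. Clu between EVP and TA turned to 0.43 with array weights, 0.0505 without replicate 1 of every population, and ran from -0.66 to 0.16 with 1 library left out. C5ar1 between EVP and D turned to 0.034 without EVP replicate 3 (lowest -0.81). The causes were not tested.

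Genes called in all numbered 4859 for EVP against D, 893 for EVP against TA and 3199 for TA against D. Array weights gave 7609 and 5054 for the first and last, quantile normalization 2117 for the last, DESeq2 1900 for EVP and TA, and leaving out 1 library 429 to 1214 there. Between EVP and D, 2952 genes were higher in EVP and 1907 in D, and 1920 and 1983 after quantile normalization, which moved the median log2 fold change of all genes from 0.46 to -0.049. Between EVP and TA the split was 398 and 495, 237 and 714 with equal totals, 387 and 272 in a fit of these populations alone, and 214 and 449 with edgeR. Depth limits the D levels most: C4b had 0 reads in D replicate 2, Cfb 4 and C1ra 11 in D replicate 1, and C3 12 in D replicate 2.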

Other observations

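Markers of other cell types also differed between the populations. Genes of mural cells summed to 5037 to 28519 normalized counts in EVP, 4335 to 143233 in TA and 3913 to 8191 in D, and 5 of 7 were higher in TA than in D. Between EVP and D, 3 mural genes were higher in EVP and 1 in D, and 1 of 7 was higher in TA than in EVP. Genes of mast cells summed to 5.53 to 14329 in EVP, 3936 to 91052 in TA and 0 to 188.6 in D, with 4 of 4 higher in both EVP and TA than in D. Melanocyte and melanoma genes summed to 29702 to 67272 in EVP, 69248 to 175671 in TA and 18157 to 47767 in D, and 6 of 6 were higher in TA than in D. Of these 6, 1 was higher in EVP than in D and 3 were higher in TA than in EVP. Keratinocyte genes summed to 976 to 5442 in EVP, 777 to 65413 in TA and 51.1 to 1652 in D, with 2 of 4 higher in EVP and 4 of 4 higher in TA than in D. Lymphocyte genes summed to 65.3 to 585 in EVP, 165 to 3395 in TA and 11.5 to 231.4 in D, with 1 of 6 higher in EVP and 2 of 6 higher in TA than in D. Of all genes tested, 11.6% were higher in EVP than in D, 8.21% higher in TA than in D and 1.94% higher in TA than in EVP. The 1 of 6 melanocyte and melanoma genes and the 1 of 6 lymphocyte genes higher in EVP than in D are near the first share. Between EVP and TA, no mast cell, keratinocyte or lymphocyte gene passed the threshold.

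Some complement genes had levels well above the detection limit and did not pass the threshold in any comparison. Cr1l, which encodes the membrane regulator Crry, had 1816 ± 326 normalized counts (SD, n = 5) in EVP and 1544 ± 242 in TA, and EVP against D gave a log2 fold change of -0.0083 (adjusted p = 0.980, limma). C1qbp had 2121 ± 277 in EVP and 2400 ± 280 in TA, and EVP against D gave -0.012 on the log2 scale (adjusted p = 0.972, limma). Cfp, which encodes properdin, had 345 ± 258 in EVP and 1146 ± 1168 in TA, where its libraries ran from 270 to 3190. EVP against TA gave a log2 fold change of -1.60 ± 0.67 (SE, unadjusted p = 0.0288, adjusted p = 0.243, limma). With that spread, whether Cfp differed between EVP and TA was not resolved. Cr1l, C1qbp and Cfp were named after their values were seen.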
